A study of Mus musculus with 4 samples.

Results

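To ask whether mouse embryonic stem cells (ESCs) without SNF2L shift along the axis from an epithelial to a mesenchymal state, 10 genes that mark the ends of this axis were followed in poly(A) RNA-seq. They were listed by name, with earlier results of these data known, and Cdh1 was to be judged against the median of its chromosome. The epithelial members are Cdh1, Epcam, Cldn6, Cldn7 and Esrp1, and the mesenchymal members are Vim, Lgals1, Snai1, Zeb1 and Zeb2. All 10 were found among the 24594 genes of the deposited count table, and all 10 were among the 13840 genes that passed the filter on low counts. SNF2L, encoded by Smarca1, belongs to the ISWI class of ATP-driven nucleosome remodelers. The cells belong to a 129S6/SvEvTac line, received no treatment and, by the study's methods, grew in medium with serum and LIF on gelatin. There were 2 wild-type (WT) libraries and 2 Snf2l knockout (KO) libraries, all from the same processing batch. By the study's methods mutant lines were made by Cas9 editing and each genotype is represented by a clone, so that genotype and clone cannot be told apart. The study describes its replicates as independent and biological, but does not say what separates the duplicates of a line. The p-values measure only the spread between these libraries.

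Epithelial cells are held together by adherens junctions, in which E-cadherin binds its counterpart on the next cell, and by tight junctions built from claudins. ESCs are themselves an epithelial-type cell: they grow as compact colonies that depend on E-cadherin. In an epithelial-to-mesenchymal transition (EMT), zinc-finger repressors of the Snail and ZEB families silence junction genes by binding E-box elements in their promoters, and cells gain vimentin filaments and contractile and matrix proteins. TGF-beta ligands are well-known inducers of the transition.

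The E-box preferred by Snail and ZEB proteins reads CACCTG on one strand and CAGGTG on the other. These letters were searched on both strands of RefSeq promoter windows (GRCm38.p6), which run from 250 bases before to 50 bases after an annotated start site. Windows were held for 6 members, 10 windows in all. Cdh1, Esrp1 and Lgals1 had no window and Zeb1 is shown without one, so that these genes were not searched for the letters. The windows printed here are the windows of the 3 searched epithelial members that hold the repressors' letters. The window of Vim, the member with the largest rise, is printed too and does not hold them. E-boxes are in capitals, and each sequence runs 5′ to 3′ on the plus strand. The windows are Epcam at chr17:87635729-87636028, Cldn6 at chr17:23679115-23679414, the downstream window of Cldn7 at chr11:69965171-69965470 and Vim at chr2:13574061-13574360.
Epcam: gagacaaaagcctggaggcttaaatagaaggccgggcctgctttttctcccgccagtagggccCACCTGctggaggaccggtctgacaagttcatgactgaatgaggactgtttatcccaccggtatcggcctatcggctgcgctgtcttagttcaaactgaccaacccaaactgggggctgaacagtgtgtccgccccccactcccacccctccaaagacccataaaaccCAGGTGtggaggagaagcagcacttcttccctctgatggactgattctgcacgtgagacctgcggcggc
Cldn6: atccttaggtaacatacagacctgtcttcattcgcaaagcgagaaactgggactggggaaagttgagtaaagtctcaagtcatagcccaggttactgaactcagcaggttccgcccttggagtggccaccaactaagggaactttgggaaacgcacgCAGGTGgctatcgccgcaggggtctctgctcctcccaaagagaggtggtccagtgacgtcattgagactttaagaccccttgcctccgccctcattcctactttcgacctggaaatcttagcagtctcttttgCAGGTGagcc
Cldn7: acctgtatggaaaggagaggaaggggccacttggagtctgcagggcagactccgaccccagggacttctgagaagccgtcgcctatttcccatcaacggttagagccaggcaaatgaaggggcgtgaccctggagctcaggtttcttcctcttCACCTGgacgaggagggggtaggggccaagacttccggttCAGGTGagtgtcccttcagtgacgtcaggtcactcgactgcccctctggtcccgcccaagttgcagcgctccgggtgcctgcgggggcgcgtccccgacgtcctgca
Vim: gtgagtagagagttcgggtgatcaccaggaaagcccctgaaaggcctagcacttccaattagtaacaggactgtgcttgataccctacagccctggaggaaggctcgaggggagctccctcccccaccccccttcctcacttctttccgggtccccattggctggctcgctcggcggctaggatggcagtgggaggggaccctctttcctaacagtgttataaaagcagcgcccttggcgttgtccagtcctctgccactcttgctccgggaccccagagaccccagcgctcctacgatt
Epcam held the letters 187 and 19 bases before its start, and Cldn6 held them 93 bases before and 41 bases after. The downstream window of Cldn7 held them 97 and 57 bases before a second annotated start site, and this window lies inside the annotated gene. The upstream window of Cldn7 held none. Among the regulators, the window of Snai1 held the letters 126 bases before its start, and the 4 windows of Zeb2 held none. Of 32851 windows of this length, 6640 (20.21%) held the letters at least 1 time and 946 (2.88%) at least 2 times. A match of letters is a description of the window and does not show binding.

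The libraries held between 13771642 and 15608803 counts. Counts of Smarca1 were 620 and 626 in WT against 37 and 31 in the KO, so the labels matched the targeted transcript. All 10 ESC marker genes examined, among them Pou5f1, were expressed, at 122 CPM (counts scaled to the size of the library) or more in every library. Their summed level was 5058 and 5326 CPM in WT and 5520 and 5588 CPM in the KO. At an adjusted p-value under 0.05 in edgeR, 1 of the 10 was called higher and 1 lower. The lowest log2 fold change among them was -0.60, for Zfp42 on chromosome 8. The median log2 fold change of the 754 tested genes on chromosome 8 was -0.51, which touches Cdh1 and no other member. Among all tested genes, 9.21% were called different at an adjusted p-value under 0.05 (quasi-likelihood test of edgeR, adjusted over all tested genes after Benjamini and Hochberg), 4% higher and 5.21% lower in the KO. In 50.5% of the tested genes the KO libraries did not overlap with the WT libraries, and this was so for 3 of the 10 members.

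Of the 10 members, 3 were called: Vim and Lgals1 rose and Cdh1 fell. The other 4 epithelial members and the 3 transcription factors were not called, and their unadjusted p-values lay between 0.493 and 0.980. By the criterion the study used for a differentially expressed gene (DEG), an adjusted p-value under 0.01 with an absolute log2 fold change over 1, 0 members qualified, against 0.99% of the tested genes. The median log2 fold change over the 10 members was 0.0062, and over all tested genes it was 0.00020. Members are single genes of the same libraries and not replicates of a state. In bulk RNA, fewer cells expressing a gene and less RNA of it per cell cannot be told apart.

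**Figure D1:**
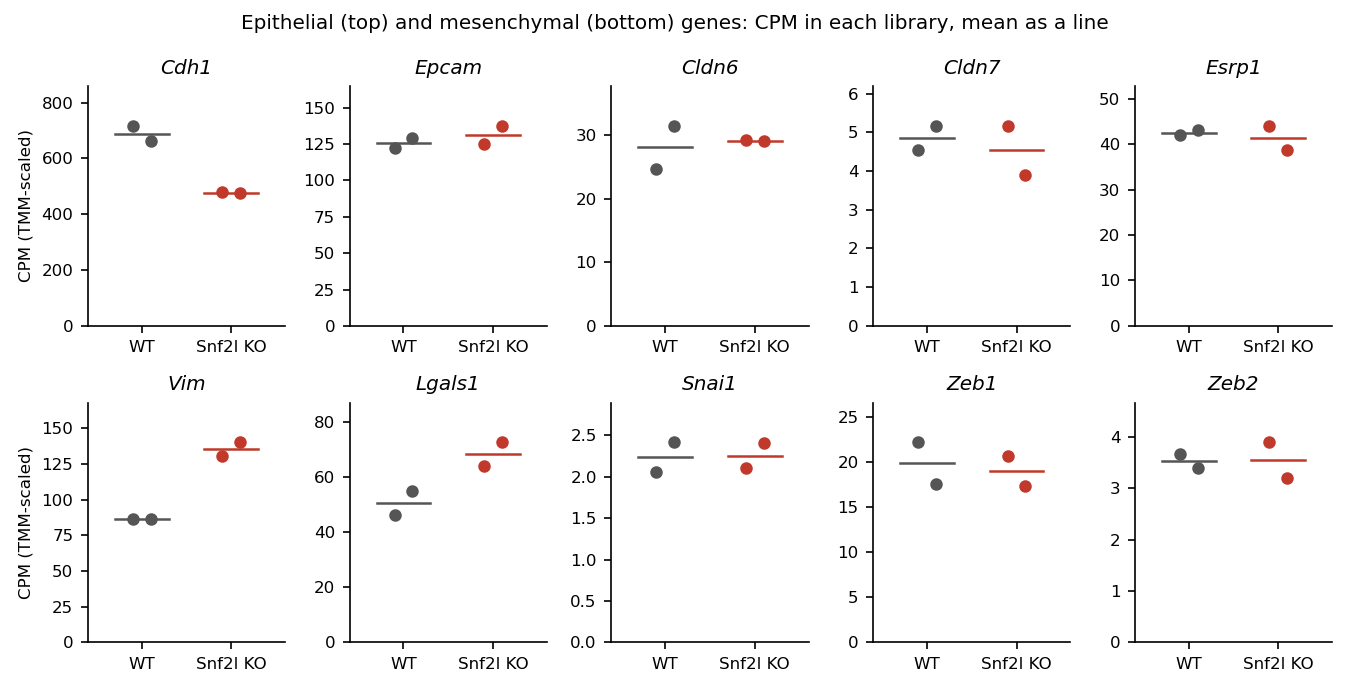
Level of each gene in CPM in the 2 WT libraries (gray points) and the 2 Snf2l KO libraries (red points), with the mean of each genotype as a line and each axis starting at 0. Both KO points lie below both WT points for Cdh1 and above them for Vim and Lgals1, and the points of the genotypes overlap for the other 7 genes.

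E-cadherin, the product of Cdh1 (Entrez gene 12550, chromosome 8, 106603350 to 106670247), is the adhesion molecule of the adherens junction. Counts of Cdh1 were 9751 and 10145 in WT against 7532 and 7292 in the KO, or 716 and 662 CPM against 480 and 474 CPM. Both KO libraries lay below both WT libraries. The WT mean of 689 ± 38.5 CPM fell to 477 ± 3.94 CPM in the KO (SD over 2 libraries). The log2 fold change of -0.53 (SE 0.083, 95% interval -0.71 to -0.35, adjusted p = 8.43e-04 in edgeR) left 69.3% of the WT level. Per kb of gene length it had the highest level of the 10 members in both genotypes.

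Because Cdh1 lies on chromosome 8, its fall was set against that of the chromosome. The median gene there stood at 70.4% of WT, and 60.1% of the chromosome's tested genes were called lower. Cdh1 lay inside the middle of the distribution, whose quartiles were -0.63 and -0.35 on the log2 scale: 335 chromosome 8 genes had a lower fold change than Cdh1 and 418 had a higher one. Removing the chromosome median in the fit left Cdh1 at -0.024 (SE 0.082, 95% interval -0.20 to 0.15, edgeR adjusted p = 0.913). In that fit 4.78% of all tested genes were called. Relative to the chromosome, a change of Cdh1 beyond this interval was therefore not detected. Taken over all genes outside chromosome 8, the fold change of Cdh1 would lie at percentile 3.72.

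The comparison was repeated library by library. In the pairs with WT replicate 1, Cdh1 was 0.091 and 0.13 log2 units below the chromosome 8 median (KO replicates 1 and 2), and in the pairs with WT replicate 2 it was 0.040 and 0.018 units above it. The sign thus followed the WT library. Between the WT libraries themselves Cdh1 differed by -0.15 from the chromosome median, more than in any of the 4 pairs of a KO with a WT library. Without WT replicate 1 the fitted difference from the chromosome was 0.035 (edgeR adjusted p = 0.993).

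The surroundings of Cdh1 gave similar values. The 129 tested genes within 10 Mb had a median of -0.52, and 82 of them were called lower. The 35 chromosome 8 genes whose mean CPM was within 2-fold of that of Cdh1 had a median of -0.51. Cdh3, which encodes P-cadherin and is the nearest tested gene on one side, stood at -0.62, with 48.1 and 49.2 CPM in WT and 31.5 and 31.7 CPM in the KO. Tango6, the nearest on the other side and chosen here by its position, was at -0.68.

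**Figure D2:**
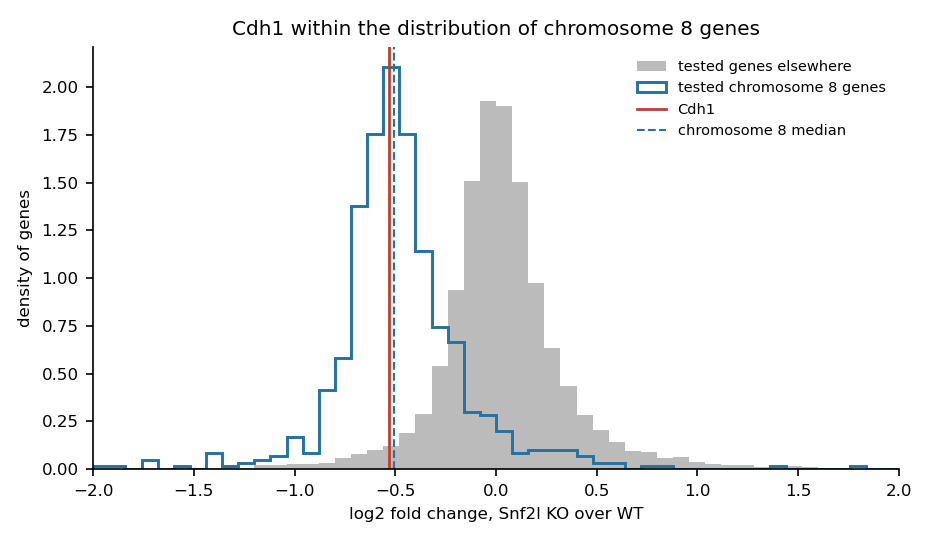
Density of log2 fold changes (KO over WT, from -2 to 2) of the 754 tested chromosome 8 genes (blue outline) and of all other tested genes (gray), with Cdh1 as a red line and the chromosome 8 median as a dashed line. The Cdh1 line at -0.53 lies beside the median at -0.51, in the left tail of the gray distribution.

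The epithelial members on other chromosomes showed no difference that passed the test. EpCAM, the product of Epcam (Entrez gene 17075, chromosome 17, 87635979 to 87651127), is a surface adhesion molecule of epithelia and of pluripotent cells. Its transcript took 1663 and 1974 counts in WT against 1964 and 2111 in the KO, or 122 and 129 CPM against 125 and 137 CPM. The genotypes overlapped, since the lower KO library lay between the WT libraries. The fitted difference was 0.065 log2 units (SE 0.092, adjusted p = 0.749 in edgeR), and its 95% interval runs from 91.2% to 119.9% of the WT level.

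Cldn6 and Cldn7 encode claudins, the strand-forming proteins of tight junctions, and Cldn6 had the higher level per kb of gene length. Cldn6 (Entrez gene 54419, chromosome 17, 23679348 to 23682446) had counts of 336 and 482 in WT and of 459 and 446 in the KO. These are 24.7 and 31.4 CPM against 29.3 and 29.0 CPM, so that both KO libraries fell between the WT libraries. The log2 fold change of 0.051 (SE 0.125, 95% interval -0.22 to 0.32) did not pass (adjusted p = 0.861 in edgeR). Cldn7 (Entrez gene 53624, chromosome 11, 69964779 to 69967886) was low, with 62 and 79 counts in the WT libraries against 81 and 60 in the KO. At 4.55 and 5.15 CPM against 5.16 and 3.90 CPM, the KO libraries enclosed the WT libraries. The difference of -0.10 log2 units (SE 0.200) gave an adjusted p of 0.826 in edgeR, and at this depth the interval of -0.53 to 0.33 still includes a fall as large as that of Cdh1.

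Esrp1 encodes an RNA-binding protein that directs the epithelial pattern of alternative splicing. Esrp1 (Entrez gene 207920, chromosome 4, 11331933 to 11386783) was counted 571 and 661 times in WT and 690 and 595 times in the KO, or 41.9 and 43.1 CPM against 44.0 and 38.7 CPM. The highest and the lowest value both came from KO libraries. With a log2 fold change of -0.041 (SE 0.106, adjusted p = 0.869 in edgeR), it had an interval from 83.1% to 113.7% of WT. For Epcam, Cldn6 and Esrp1 the 95% interval does not reach the fall of -0.53 measured for Cdh1.

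Vimentin, the intermediate filament protein of mesenchymal cells, is encoded by Vim (Entrez gene 22352, chromosome 2, 13574311 to 13582826). There were 1173 and 1322 counts of Vim in WT against 2050 and 2152 in the KO, or 86.2 and 86.3 CPM against 131 and 140.0 CPM. The WT libraries were nearly equal, and both KO libraries lay well above them. The WT mean of 86.2 ± 0.0578 CPM rose to 135 ± 6.63 CPM in the KO (SD over 2 libraries), which is 1.57-fold (95% interval 1.37 to 1.80). On the log2 scale this is 0.65 (SE 0.091, adjusted p = 4.30e-04 in edgeR), and relative to the median of chromosome 2 it was 0.63. Its adjusted p-value was at most 0.00196 in every alternative fit, each library left out included.

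Galectin-1, encoded by Lgals1 (Entrez gene 16852, chromosome 15, 78926725 to 78930465), is a secreted lectin abundant in mesenchymal cells. WT libraries held 629 and 842 counts of Lgals1, and KO libraries held 1005 and 1116. In CPM these are 46.2 and 54.9 in WT and 64.1 and 72.6 in the KO, so both KO libraries lay above both WT libraries but the spread within each genotype was wider than for Vim. The mean was 50.6 ± 6.17 CPM in WT and rose to 68.3 ± 6.06 CPM in the KO (SD over 2 libraries), or 1.35-fold (95% interval 1.15 to 1.59). The log2 fold change of 0.43 (SE 0.110) passed with an adjusted p of 0.0219 in edgeR and was 0.40 relative to the median of chromosome 15. This call rested on WT replicate 1, the lowest library: without it the log2 fold change was 0.31 and the adjusted p-value 0.312. It also ended, at an adjusted p-value of 0.0501, when every gene with at least 1 count was tested.

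Of the transcription factors that drive the transition, Snai1 and Zeb2 were at low mean CPM, at percentiles 14.7 and 19.8 of the tested genes, and Zeb1 was at percentile 45.0. Mean CPM is not corrected for gene length. Per kb, Zeb1 (2.26 CPM per kb in WT) stood below Cldn7 (2.49), with overlapping libraries, and Snai1 (1.38) stood above Zeb2 (0.175). Snail, encoded by Snai1 (Entrez gene 20613, chromosome 2, 167538195 to 167542814), represses Cdh1 and other junction genes. Only 28 and 37 counts of Snai1 were found in WT and 33 and 37 in the KO, or 2.06 and 2.41 CPM against 2.10 and 2.41 CPM, and the genotypes overlapped. With so few counts the fold change of 0.0064 on the log2 scale (SE 0.255, adjusted p = 0.993 in edgeR) has a 95% interval from 68.8% to 146.7% of WT, so that a change within this range was not detectable at this depth.

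ZEB1 and ZEB2 are related zinc-finger and homeodomain repressors of epithelial genes. Zeb1 (Entrez gene 21417, chromosome 18, 5591327 to 5775468) had counts of 302 and 269 in WT and of 324 and 267 in the KO. Its levels of 22.2 and 17.6 CPM in WT and 20.7 and 17.4 CPM in the KO overlapped, with replicate 1 the higher library in each genotype. The difference was -0.059 log2 units (SE 0.141, 95% interval -0.36 to 0.24, adjusted p = 0.858 in edgeR). Zeb2 (Entrez gene 24136, chromosome 2, 44983512 to 45117442) was counted 50 and 52 times in WT and 61 and 49 times in the KO, or 3.67 and 3.39 CPM against 3.89 and 3.19 CPM. The KO libraries enclosed the WT libraries. On the log2 scale the difference was 0.0059 (SE 0.213, 95% interval -0.45 to 0.46, adjusted p = 0.993 in edgeR). The antisense gene Zeb2os, which overlaps Zeb2, had 0 counts in WT and in KO replicate 1 and 3 counts in KO replicate 2. Gm10125, which overlaps Zeb1, had at most 1 count in a library.

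**Figure D3:**
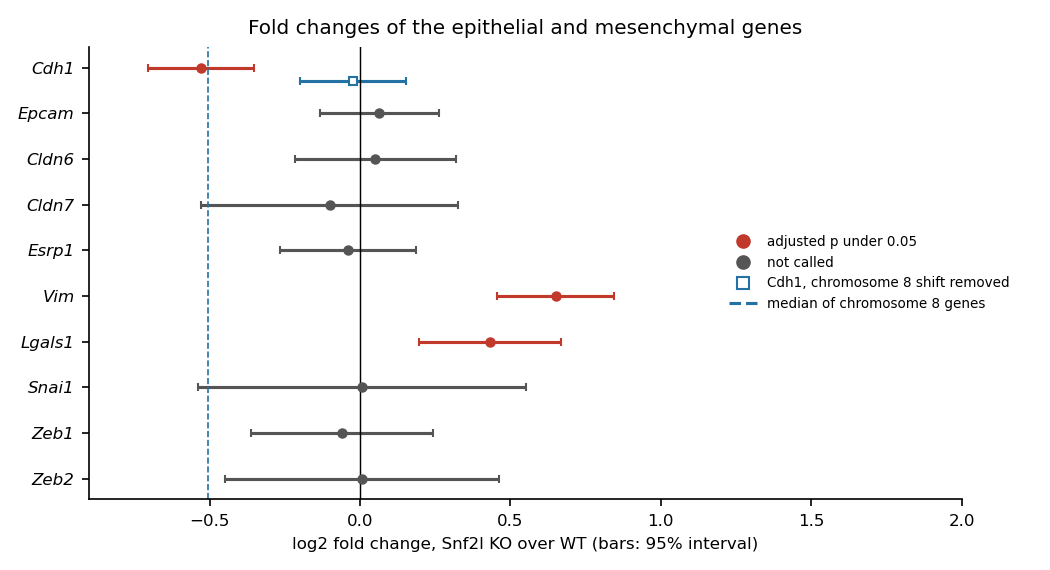
Log2 fold change (KO over WT) of each gene with its 95% interval, red where the adjusted p-value was under 0.05. The open blue square is Cdh1 after removal of the chromosome 8 shift (-0.024) and the dashed line is the chromosome 8 median (-0.51). Vim at 0.65 and Lgals1 at 0.43 are the points to the right whose intervals exclude 0.

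Levels were then ordered per kb of gene length, as CPM divided by the length given in the deposited table. In WT the order of mean levels was Cdh1 (151 CPM per kb), Epcam (57.2), Lgals1 (56.0), Vim (37.1), Cldn6 (16.3), Esrp1 (6.75), Cldn7 (2.49), Zeb1 (2.26), Snai1 (1.38) and Zeb2 (0.175). The WT libraries of Epcam and Lgals1 overlapped in this order, as did those of Cldn7 and Zeb1. All other neighbours were separated by more than the spread of their libraries. In the KO Lgals1 (75.7 CPM per kb) stood above Epcam (59.8), and Vim (58.2) stood beside Epcam, with overlapping libraries, while the order from Cldn6 to Zeb2 was as in WT. Cdh1, at 104 CPM per kb, was still first and exceeded Lgals1 1.38-fold. Within WT, Cdh1 exceeded the next gene 2.64-fold. At 0.175 CPM per kb in WT and in the KO, Zeb2 was the lowest member in both genotypes.

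**Figure D4:**
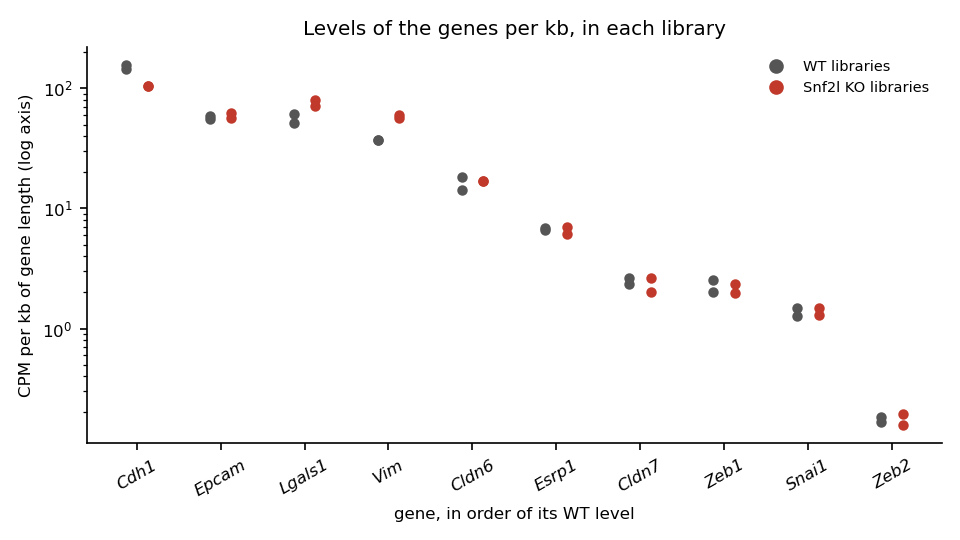
Level per kb of gene length in each WT (gray) and Snf2l KO (red) library on a log axis, with the genes in the order of their WT means. The genes span from 0.158 to 157 CPM per kb. The KO points of Vim come up to those of Epcam, and the KO points of Lgals1 lie above them.

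The members were next set beside 149 other genes of epithelial and mesenchymal biology, of which 120 were tested. Of these, 22 were called higher and 9 lower, 10 were DEGs, and the median log2 fold change was 0.054. Over all tested genes, 4% were called higher, 5.21% were called lower and 0.99% were DEGs, with a median of 0.00020. The counts of each list below are to be read beside these shares. With the chromosome 8 shift removed, 19 were higher and 4 lower. Without WT replicate 2 the number of higher genes was 14.

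Around Vim and Lgals1, genes of mesenchymal adhesion, matrix and the contractile cytoskeleton had the largest share of calls among the 8 lists compared. Over all tested genes 9.21% were called. The lists were written with earlier results of these data known, so that their order is a description and not a test. Of the 29 tested genes of the mesenchymal list, 12 were higher, 2 were lower and 15 were not called. In this list 6 genes were DEGs, and the median was 0.30. Acta2 (smooth muscle actin) rose from 8.82 and 9.26 CPM in WT to 50.5 and 52.6 CPM in the KO, or 2.51 log2 units (SE 0.119, adjusted p = 5.25e-09 in edgeR). Tagln, which encodes the actin-binding protein transgelin, rose from 19.4 and 20.9 CPM to 50.7 and 59.0 CPM. Anxa1 (annexin A1) and Loxl2 (a matrix cross-linking enzyme) had log2 fold changes of 1.72 and 1.36. Tnc (tenascin C, a matrix protein) was counted 0 and 2 times in WT and 43 and 31 times in the KO, at least 11.4-fold higher against a floor of 3 counts in each WT library. With Tnc at this bound the median stayed at 0.30. The other 7 higher genes had log2 fold changes between 0.33 and 1.29. The lower genes were Itgb1 (integrin beta 1, -0.74) and Mmp2 (a matrix metalloprotease, -0.68). Both lie on chromosome 8 and were at -0.24 and -0.17 with its shift removed (edgeR adjusted p = 0.143 and 0.575).

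Markers of other cells moved with these genes. The summed level of 10 fibroblast genes was 41.4 and 41.0 CPM in WT and 67.4 and 67.3 CPM in the KO. Of the 7 tested, 3 were called higher (Col3a1, Col1a1 and Fbln1) and 7 of 7 had their KO libraries above their WT libraries. Over all tested genes 4% were called higher, and in 50.5% the libraries of the genotypes did not overlap, in either direction. Lum and Fap had 0 counts in every library and Dcn had 0 and 2 counts in each genotype. Fbln1 made up most of the fibroblast sum, at 26.0 and 28.4 CPM in WT and 38.9 and 38.8 CPM in the KO. The summed level of 10 primitive endoderm genes was 159 and 132 CPM in WT and 221 and 189 CPM in the KO, with 5 of 9 tested genes called higher. Their part in the rises of Vim, Lgals1 and the mesenchymal list was not tested.

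Around Cdh1, Epcam and the claudins, the list of junction and polarity genes went both ways. Of 41 tested, 5 were higher, 3 were lower and 33 were not called, with a median of -0.013. The higher genes were led by epithelial keratins: Krt18 rose from 16.0 and 18.3 CPM in WT to 39.5 and 42.3 CPM in the KO (log2 fold change 1.25, SE 0.117, edgeR adjusted p = 1.81e-05), and its partner Krt8 from 13.7 and 13.4 CPM to 27.7 and 30.1 CPM (1.10, SE 0.121, edgeR adjusted p = 7.37e-05). Vim and these keratins, filament genes of opposite ends of the axis, were higher in the same libraries. Krt7 (0.78, edgeR adjusted p = 0.0497) lost its call whichever library was left out, with adjusted p-values from 0.0656 to 0.298. Spint1, a membrane protease inhibitor of epithelia, was at 0.68, and the polarity gene Llgl2 at 0.44, or at 0.35 and an adjusted p-value of 0.190 without WT replicate 1. The lower genes were the desmosomal Pkp2 (-0.72) and 2 genes of chromosome 8, Cdh3 and the polarity gene Pard3 (-0.67). With the shift of that chromosome removed, Cdh3 was at -0.12 and Pard3 at -0.17. Of the 6 other claudins tested, 0 were called by edgeR, 1 had an unadjusted p-value under 0.05, and the median was 0.13. Over all 13840 tested genes, 3066 had an unadjusted edgeR p-value under 0.05.

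Regulators of the epithelial state, the company of Esrp1, had 3 of 12 genes called higher and 0 lower, with a median of 0.054. They were Rbm47, an RNA-binding splicing regulator (0.60), Grhl2, an activator of Cdh1 and other junction genes (0.40), and Klf4 (0.34). Klf4 is also the ESC marker called higher above. Grhl2 and Klf4 were not called with DESeq2 (adjusted p = 0.0673 and 0.0558) or in edgeR when every gene with at least 1 count was tested (0.0559 and 0.0702). Of the 3 calls, 2 stayed with the chromosome 8 shift removed, where Klf4 had an edgeR adjusted p-value of 0.0560. Leaving out 1 library ended these calls for Rbm47 without WT replicate 2 (0.49, adjusted p = 0.0625). It also ended them for Grhl2 and Klf4 without WT replicate 1 (adjusted p = 0.166 and 0.232), WT replicate 2 (0.134 and 0.174) or KO replicate 1 (0.0872 and 0.135).

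Among other transcription factors linked to EMT, the company of Snai1, Zeb1 and Zeb2, 9 were tested, 0 were higher and 2 were lower in edgeR, with a median of -0.044. Of the 9, 1 lies on chromosome 8. With the shift of that chromosome removed the median was 0.057, above 0, and again 2 were called lower and 0 higher. Among the lower genes was the chromatin protein Hmga2 (-0.51, edgeR adjusted p = 0.0187). Hmga2 lost its call without WT replicate 1 or WT replicate 2 (adjusted p = 0.0766 and 0.0786). A further 4 factors had an unadjusted p-value under 0.05 only. With the called genes included, 6 of the 9 had an unadjusted edgeR p-value under 0.05, against 3066 of all 13840 tested genes. Of the 9, 4 had a fold change above 0 and 5 below it, and the highest, at 1.62 log2 units, was not called. Upstream of the transition, the TGF-beta ligand Tgfb2 rose from 1.54 and 0.979 CPM to 5.86 and 3.90 CPM, or 1.97 log2 units (SE 0.294, adjusted p = 6.81e-04 in edgeR), and its receptor gene Tgfbr2 took 7 and 6 counts in WT against 21 and 20 in the KO (1.54, edgeR adjusted p = 0.0272). Without WT replicate 2 Tgfbr2 was at 1.35 with an adjusted p-value of 0.154. These were the called genes among 10 tested ligands, receptors and mediators.

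The other members of the protein families of Vim and Lgals1 were then examined. Of 16 other intermediate filament genes tested, 3 were higher (the keratins above), 2 were lower and 11 were not called, with a median of -0.091. The lower genes were Nes, the neural progenitor filament nestin, which fell from 43.9 and 43.6 CPM to 20.0 and 22.0 CPM (-1.06, SE 0.109, edgeR adjusted p = 4.25e-05), and Prph (-0.70, edgeR adjusted p = 0.0454), whose adjusted p-value was 0.337 without WT replicate 2 and 0.109 without KO replicate 1. Of the 5 other galectins tested, 0 were called by edgeR, 0 had an unadjusted p-value under 0.05, and the median was -0.18. The unadjusted edgeR p-value was under 0.05 for 3066 of all 13840 tested genes.

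**Figure D5:**
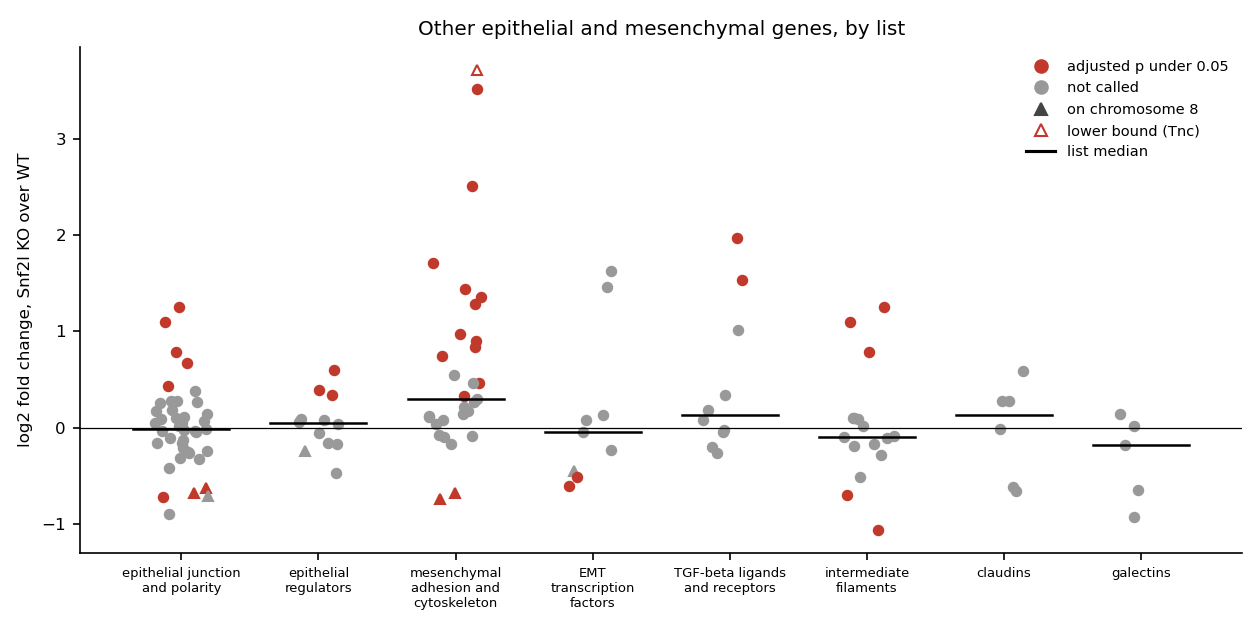
Log2 fold changes (KO over WT) of the tested genes of 8 lists, red where the adjusted p-value was under 0.05, with triangles for chromosome 8 genes and a line at each list's median; Tnc is drawn at its lower bound. The mesenchymal adhesion and cytoskeleton list has its median at 0.30, and the medians of the other lists lie between -0.18 and 0.14.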

How the data were processed

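Poly(A) RNA of 2 WT and 2 Snf2l KO libraries was sequenced. The authors aligned reads to mm10 with QuasR and HISAT2 (bcl2fastq 2.17 is named in the submitters' processing notes) and deposited whole-number counts per Entrez gene over UCSC Known Genes, with gene lengths. The labels name a stranded kit and the methods an unstranded one, and the use of strand in counting is not given in the sources used here, so that overlapping genes cannot be separated. Of 24594 genes, 24570 (99.9%) matched RefSeq identifiers (GRCm38).

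Counts were tested with edgeR 4.0.16 (R 4.3.3): filterByExpr (minimum count 10), TMM, legacy glmQLFit and glmQLFTest with genotype as the only term, two-sided, Benjamini-Hochberg over 13840 genes, called at 0.05. CPM used TMM-scaled library sizes. For chromosome 8 the median shift was added as an offset to the KO libraries. Depth was 13771642 to 15608803 counts, and the common biological coefficient of variation between replicates was 7.45%. Intervals of fold changes come from the fit, and floors of 3 counts cover counting error only. The procedure was tested on simulated data. Replicates differed by more than sampling noise (chi-square per degree of freedom 5.48 and 7.83).

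The members and lists were chosen with earlier results of these data known. All members were named, and from each other list the called genes, at most 5 in each direction by size, except 1 gene that is not reported here. Alternatives were other scalings, filters and edgeR settings, DESeq2 1.42.0, a replicate block, the DEG threshold, other chromosome 8 references and each library left out in turn.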

Additional observations from a re-analysis of the deposited data

How the results depend on the processing

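Of the 10 members, 3 were called, 2 higher and 1 lower. At the DEG threshold these numbers were 0, 0 and 0. The number higher was 1 when every gene with at least 1 count was tested, where Lgals1 had an adjusted p-value of 0.0501, and it ranged from 1 to 2 with 1 library left out. The number lower was 0 with the chromosome 8 shift removed, where Cdh1 was at -0.024. Of the other listed genes, 31 were called, 22 higher and 9 lower. These were 48 with the replicate block, 16 of them lower, and 10 at the DEG threshold (9 higher and 1 lower). With the chromosome 8 shift removed 4 were lower, and with 1 library left out between 14 and 22 were higher. The replicate numbers alone do not establish pairs. Across the tested genes, deviations of same-numbered libraries from their genotype means correlated at 0.196. With 2 libraries in each genotype this value is the same for both numbers by construction. Whether same-numbered libraries share a source of variation was not tested. The block called 3471 genes in all against 1274 without it.

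Vim ranged from 0.60 to 0.70 and Cdh1 from -0.59 to -0.47 with 1 library left out. Cdh1 relative to chromosome 8 lay between -0.097 and 0.035 in the same fits and between -0.037 and -0.0073 in the 11 other alternatives. Members that were not called changed sign with 1 library left out, and 0 of them gained a call: Epcam (-0.0010 to 0.13), Cldn6 (-0.11 to 0.24), Cldn7 (-0.31 to 0.087), Esrp1 (-0.13 to 0.050), Snai1 (-0.098 to 0.13), Zeb1 (-0.22 to 0.12) and Zeb2 (-0.14 to 0.14). Zeb2 was -0.00052 with the replicate block. For the 24 named genes of the other lists, 333 values were computed, of which 0 reversed and 34 lost the call, 17 with 1 library left out, 7 with the chromosome 8 shift removed and 5 with DESeq2. DESeq2 gave 1074 genes no adjusted p-value. The share of higher genes among all calls was 43.4%, 49.9% with upper-quartile scaling and 67.2% with the chromosome 8 shift removed. The causes of these differences were not tested. Snai1, Zeb2 and Cldn7 had 81 counts or fewer in a library, and changes within their intervals were not detectable.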
